A study of Homo sapiens with 18 samples.

Results

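CASP2, BCL2A1 and BMF are 3 genes of programmed cell death that were followed across all 6 groups of an RNA sequencing series on human acute myeloid leukaemia cells. They were found by their symbol in the deposited table of TPM (an abundance scaled to transcript length and library depth), and they make up 3 of its 5069 distinct sets of 18 values. CASP2 was the gene targeted in this study, and BCL2A1 and BMF belong to the BCL2 family. The groups were clone 1 and clone 2 of OCI-AML2, both with genotype NPM1WT Caspase-2 KO, and the OCI-AML2 parental cells, NPM1WT Caspase-2 WT. The same was done in OCI-AML3, with clone 1 and clone 2 of genotype NPM1c+ Caspase-2 KO and the parental cells NPM1c+ Caspase-2 WT. Each group had 3 libraries, and all cells were untreated and kept in culture for under 2 weeks. The knockouts were made with CRISPR/Cas9, a nuclease guided to a chosen site, and each knockout group is the progeny of 1 clone, so a difference between a clone and its parental line can also be a difference between 1 cell and the population it was picked from. The labels do not say whether the libraries of a group came from separate cultures. The p-values measure the spread between libraries of a group, estimated over all 6 groups together, and this spread may be technical. In bulk RNA, fewer cells expressing a gene and less RNA per cell cannot be told apart.

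BCL2 family proteins govern the permeability of the outer mitochondrial membrane. Pro-survival members such as BCL2A1 (also called BFL-1 or A1) hold BAX and BAK and the BH3-only proteins in check, whereas BH3-only members such as BMF bind pro-survival members and favour cell death. BCL2A1 is a transcriptional target of NF-kB in blood cells, and BMF was described as a sensor of cytoskeletal and other stress signals. Caspase-2, the product of CASP2, is an initiator protease that is activated on a platform containing PIDD1 and CRADD and that cleaves the BH3-only protein BID.

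The table did not list each gene once, so the identity of each member rested on how its lines were arranged. CASP2 stood in 1 line, without a difference of a log2 ratio of 0.6 or more between the parental lines, and it was accepted as it stood. BMF stood in 2 lines with the same values in a different replicate order of OCI-AML3 clone 1, both under its own symbol. The BCL2A1 values stood under BCL2A1 and, with the OCI-AML3 clone 1 values rotated, under LZIC, and the BCL2A1 line was the one in the leading order. A second line printed under BCL2A1 held other values, and it was not used as BCL2A1 because a single line with a difference between the parental lines left the symbol unsettled. A log2 ratio of 0.95 was reached by 96.5% of the sets in OCI-AML2 clone 1, in both OCI-AML3 clones or between the parental lines. Passing a comparison is therefore common in this table, and the shares and ranks below refer to its sets, not to all genes. BCL2A1 reached this ratio in each of these, BMF in all but OCI-AML2 clone 1, and CASP2 in OCI-AML2 clone 1 only. If lines were kept for such changes, which was not tested, CASP2 was listed through its fall in OCI-AML2 clone 1. Its p-value and rank there are then no independent support. Of 4413 tested sets, 56% passed in OCI-AML2 clone 1 against parental cells, 65.7% in OCI-AML2 clone 2, 72.2% in OCI-AML3 clone 1 and 73.1% in OCI-AML3 clone 2, in either direction, with limma's adjusted p under 0.05. The distinct sets summed to between 170140 and 199403 TPM per library, and the read depth is unknown. Of 19 genes fixed as markers of myeloid and monocytic cells, 9 could be tied to a set of values. The granule protein genes AZU1, PRTN3 and CTSG were among these 9. Their summed level was 9640 to 12300 TPM in OCI-AML2 clone 1, 4000 to 4990 in clone 2 and 5330 to 5900 in OCI-AML2 parental cells, and 4070 to 4250 TPM in OCI-AML3 clone 1, 4850 to 5500 in clone 2 and 14400 to 16200 in OCI-AML3 parental cells. The sum is dominated by these 3 granule genes, and the members did not move alike: 5 passed as higher and 2 as lower in OCI-AML2 clone 1, 1 and 6 in OCI-AML2 clone 2, and 2 and 6 in each OCI-AML3 clone. The monocyte receptor gene CD14, at 42.1 and 50.2 TPM in OCI-AML3 clones 1 and 2 against 0.813 in parental cells, changed by 4.60 and 4.84 on the log2 scale there and by -0.68 and -0.86 in OCI-AML2 clones 1 and 2, the directions that BMF also took. ANPEP, the gene of the myeloid antigen CD13, was the other to rise in the OCI-AML3 clones, by 0.95 and 1.14. CD68, FCGR1A, ITGAX and ITGAM of the same list went the other way and passed as lower in both OCI-AML3 clones. CD68 averaged 188 and 216 TPM in clones 1 and 2 against 823 in parental cells. FCGR1A averaged 30.2 and 28.3 TPM there against 91.5, and ITGAX 2.65 and 3.08 against 8.97. ITGAM was at most 0.24 TPM in any OCI-AML3 library. Of the markers of other lineages, 3 could be tied to a set. The T cell gene CD3D lay between 0.98 and 1.74 TPM in the OCI-AML2 clones and was listed at 0 in the libraries of the other 4 groups. The collagen gene COL1A2 lay between 1.83 and 3.91 TPM in the OCI-AML3 clones and between 0.06 and 0.25 TPM in their parental cells, and the platelet integrin gene ITGA2B averaged 0.437 and 0.32 TPM in OCI-AML3 clones 1 and 2 against 2.82 TPM in their parental cells (log2 changes -1.42 and -1.53, limma adjusted p = 7.56e-10 and 2.69e-10). The part of these marker differences in the results below was not tested.

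**Figure D1:**
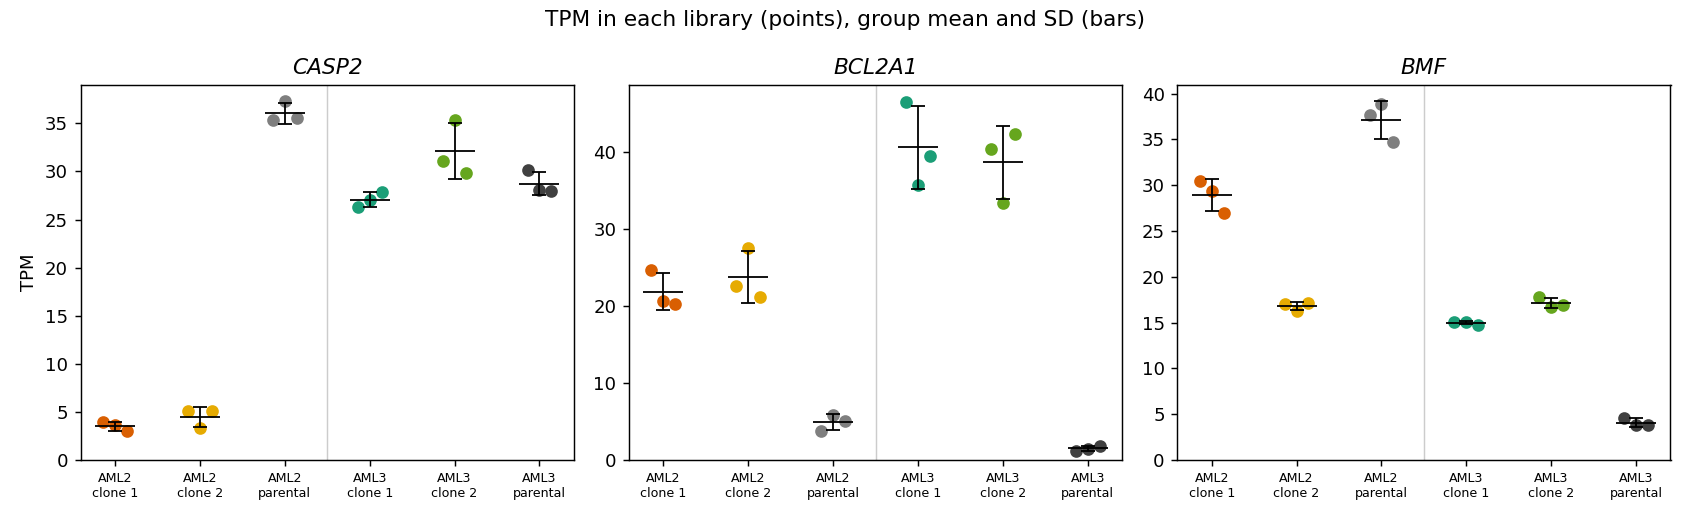
TPM of CASP2, BCL2A1 and BMF in each of the 18 libraries (points), with the group mean and SD (black bars, n = 3) for OCI-AML2 (AML2) on the left and OCI-AML3 (AML3) on the right of each panel. CASP2 is low only in the 2 OCI-AML2 clones, BCL2A1 is higher in all 4 clones than in the parental cells of the same line, and BMF is lower than in parental cells in the OCI-AML2 clones and higher in the OCI-AML3 clones.

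The mRNA of CASP2, the targeted gene, was low in both OCI-AML2 clones and near the parental level in both OCI-AML3 clones. In OCI-AML2 it measured 3.93, 3.58 and 3 TPM in clone 1 and 5.03, 3.27 and 5.06 TPM in clone 2, against 35.32, 37.29 and 35.57 TPM in parental cells. No clone library of OCI-AML2 came near the parental values, though the share of all sets so separated was not counted. In clone 1 9.72% of the parental mean was left, and in clone 2 12.3%. The log2 change of TPM + 1 was -3.05 in clone 1 (95% interval -3.28 to -2.81, limma adjusted p = 1.66e-13) and -2.78 in clone 2 (-3.02 to -2.55, limma adjusted p = 4.18e-13). Of all tested sets, 20.9% passed as lower in clone 1 and 27.5% in clone 2. In absolute size the CASP2 change exceeded that of 99.1% and 98.6% of all tested sets. The clone 1 rank and p-value fall under the limit given above for how CASP2 may have been listed. The clone 2 comparison used the same OCI-AML2 parental libraries, so it is not free of that limit.

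In OCI-AML3, CASP2 measured 26.34, 27.05 and 27.83 TPM in clone 1 and 31.09, 35.39 and 29.82 TPM in clone 2, against 30.11, 28.12 and 28 TPM in parental cells. The clone 1 libraries lay just under the parental ones without overlap, and those of clone 2 overlapped them. Neither difference passed, at -0.08 in clone 1 (95% interval -0.32 to 0.15, limma adjusted p = 0.537) and 0.15 in clone 2 (-0.09 to 0.39, limma adjusted p = 0.24). After rescaling of the libraries by medians of ratios the clone 1 value turned to 0.06 and the clone 2 value passed as higher at 0.32 (limma adjusted p = 0.00929, with a range of 0.00929 to 0.59 over the alternatives). A small insertion or deletion need not lower mRNA, so these levels do not check the OCI-AML3 labels. The low mRNA of the OCI-AML2 clones does not by itself show an edited allele either. No guide sequence or edited allele was analysed here.

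Ordered by mean, CASP2 was highest in OCI-AML2 parental cells (36.1 TPM), followed by OCI-AML3 clone 2 (32.1), OCI-AML3 parental cells (28.7), OCI-AML3 clone 1 (27.1), OCI-AML2 clone 2 (4.45) and OCI-AML2 clone 1 (3.50). The step between OCI-AML3 clone 1 and OCI-AML2 clone 2 was the wide one. The libraries of OCI-AML2 parental cells overlapped with those of OCI-AML3 clone 2, and those of the 2 OCI-AML2 clones overlapped with each other. In parental cells CASP2 was lower in OCI-AML3 than in OCI-AML2 by 0.32 on the log2 scale (SE 0.11, limma adjusted p = 0.0132), a comparison in which 90.6% of sets passed. Clone 2 exceeded clone 1 by 0.26 in OCI-AML2 (95% interval 0.03 to 0.50, limma adjusted p = 0.0534) and by 0.23 in OCI-AML3 (-0.003 to 0.47, limma adjusted p = 0.214), and neither passed. The first of these passed without OCI-AML2 clone 1 replicate 1 (0.33, limma adjusted p = 0.0313) and without OCI-AML2 clone 2 replicate 2 (0.43, limma adjusted p = 0.000554), the lowest library of its group.

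BCL2A1, the pro-survival member, was higher in all 4 clones than in the parental cells of the same line. In OCI-AML2 it measured 24.63, 20.68 and 20.23 TPM in clone 1 and 22.67, 27.57 and 21.13 TPM in clone 2, against 3.8, 5.85 and 4.99 TPM in parental cells. In OCI-AML3 it measured 46.5, 35.81 and 39.58 TPM in clone 1 and 40.38, 33.36 and 42.44 TPM in clone 2, against 1.2, 1.43 and 1.79 TPM in parental cells. In both lines the lowest clone library stood far above the highest parental one, and the parental level itself was low. How many other sets were separated in this way was not counted.

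The ratio of mean TPM to the parental mean was 4.48 in clone 1 and 4.88 in clone 2 of OCI-AML2, and 27.6 in clone 1 and 26.3 in clone 2 of OCI-AML3. On the log2 scale of TPM + 1, which understates changes of genes with low values, BCL2A1 rose by 1.97 and 2.08 in the OCI-AML2 clones (SE 0.14 each, limma adjusted p = 1.43e-09 and 4.4e-10). The rise in the OCI-AML3 clones was 4.07 and 4.01 (SE 0.14 each, limma adjusted p = 2.66e-14 and 3.13e-14). Of all tested sets, 35.1% and 38.3% passed as higher in OCI-AML2 clones 1 and 2 and 31.3% and 31.6% in OCI-AML3 clones 1 and 2. After rescaling, the 1547 higher and 924 lower sets of OCI-AML2 clone 1 became 1297 and 1201. By absolute size the BCL2A1 change exceeded that of 97.4% and 96.5% of sets in the OCI-AML2 clones and of 99.3% and 99.1% in the OCI-AML3 clones. Passing as higher in all 4 clones was less common, at 284 sets or 6.44%, and BCL2A1 was one of them.

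The rise of BCL2A1 was larger in OCI-AML3 than in OCI-AML2 by 2.01 on the log2 scale (SE 0.17, limma adjusted p = 6.52e-09), a test of the difference itself in which 81.7% of sets passed. That comparison was sensitive to the scaling as a whole, because the median over all sets moved by 0.17 with medians of ratios. The parental cells started apart, since BCL2A1 was lower in OCI-AML3 parental than in OCI-AML2 parental cells by 1.24 (SE 0.14, limma adjusted p = 1.57e-07). The order of the group means was OCI-AML3 clone 1 (40.6 TPM), OCI-AML3 clone 2 (38.7), OCI-AML2 clone 2 (23.8), OCI-AML2 clone 1 (21.8), OCI-AML2 parental (4.88) and OCI-AML3 parental (1.47). The clones of a line overlapped, while all other neighbours in this order were separated. Clone 2 differed from clone 1 by 0.11 in OCI-AML2 (95% interval -0.18 to 0.41, limma adjusted p = 0.537) and by -0.07 in OCI-AML3 (-0.36 to 0.23, limma adjusted p = 0.855). Of all sets, 58.9% passed between the OCI-AML2 clones and 6.82% between the OCI-AML3 clones.

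BMF, the BH3-only member, moved in opposite directions in the 2 lines. In OCI-AML2 it measured 30.47, 29.37 and 26.95 TPM in clone 1 and 17, 16.25 and 17.12 TPM in clone 2, against 37.67, 38.83 and 34.77 TPM in parental cells. In OCI-AML3 it measured 15.09, 15.09 and 14.76 TPM in clone 1 and 17.74, 16.69 and 16.9 TPM in clone 2, against 4.58, 3.79 and 3.84 TPM in parental cells. No clone library overlapped with a parental library of its own line. The share of all sets without such overlap was not counted, so this is not read as particular to BMF.

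BMF fell to 78.0% of the parental mean in OCI-AML2 clone 1 (log2 change -0.35, SE 0.07, limma adjusted p = 0.000406) and to 45.3% in OCI-AML2 clone 2 (-1.10, SE 0.07, limma adjusted p = 2.38e-10). The fall in clone 2 was deeper, with a difference between the clones of -0.75 (95% interval -0.90 to -0.60, limma adjusted p = 6.93e-08), and in absolute size the clone 1 change exceeded that of 53.6% of sets and the clone 2 change that of 82.5%. In OCI-AML3, BMF rose 3.68-fold in clone 1 (log2 change 1.66, SE 0.07, limma adjusted p = 4.44e-13) and 4.20-fold in clone 2 (1.84, SE 0.07, limma adjusted p = 1.07e-13). The OCI-AML3 clones differed from each other by 0.18 (95% interval 0.03 to 0.33, limma adjusted p = 0.133).

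The change of BMF differed between the lines by 2.47 (OCI-AML3 minus OCI-AML2, SE 0.09, limma adjusted p = 3.6e-14). A combination of lower in both OCI-AML2 clones and higher in both OCI-AML3 clones was found in 191 sets, 4.33% of those tested. Parental OCI-AML3 cells held less BMF than parental OCI-AML2 cells, by 2.91 on the log2 scale (SE 0.07, limma adjusted p = 2.99e-17). The changes of the clones brought the lines closer: the means were 37.1 TPM in OCI-AML2 parental cells, 28.9 in OCI-AML2 clone 1, 17.1 in OCI-AML3 clone 2, 16.8 in OCI-AML2 clone 2, 15.0 in OCI-AML3 clone 1 and 4.07 in OCI-AML3 parental cells. In this order the libraries of OCI-AML3 clone 2 and OCI-AML2 clone 2 overlapped and the other neighbours did not. With 3 libraries against 3, the exact two-sided permutation test of single values gave its smallest possible p of 0.1 for BCL2A1 and BMF in each of the 4 clones against parental cells. For CASP2 the exact permutation p was 0.1 in both OCI-AML2 clones and in OCI-AML3 clone 1 and 0.2 in OCI-AML3 clone 2. A value of 0.1 restates that the libraries compared did not overlap and is no further support.

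**Figure D2:**
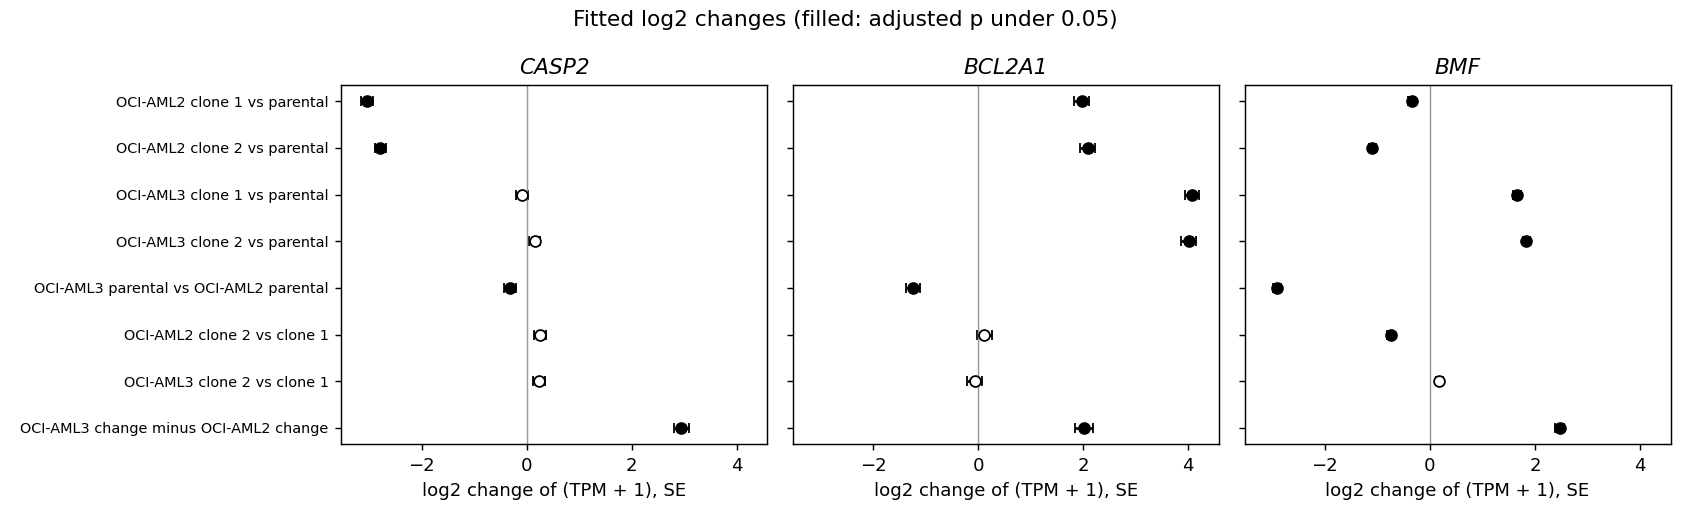
Fitted log2 changes of TPM + 1 with their SE for each member and comparison, filled where limma's adjusted p was under 0.05. The largest values are those of BCL2A1 in the OCI-AML3 clones (4.07 and 4.01), and BMF lies left of 0 in the OCI-AML2 clones (-0.35 and -1.10) and right of 0 in the OCI-AML3 clones (1.66 and 1.84).

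**Figure D3:**
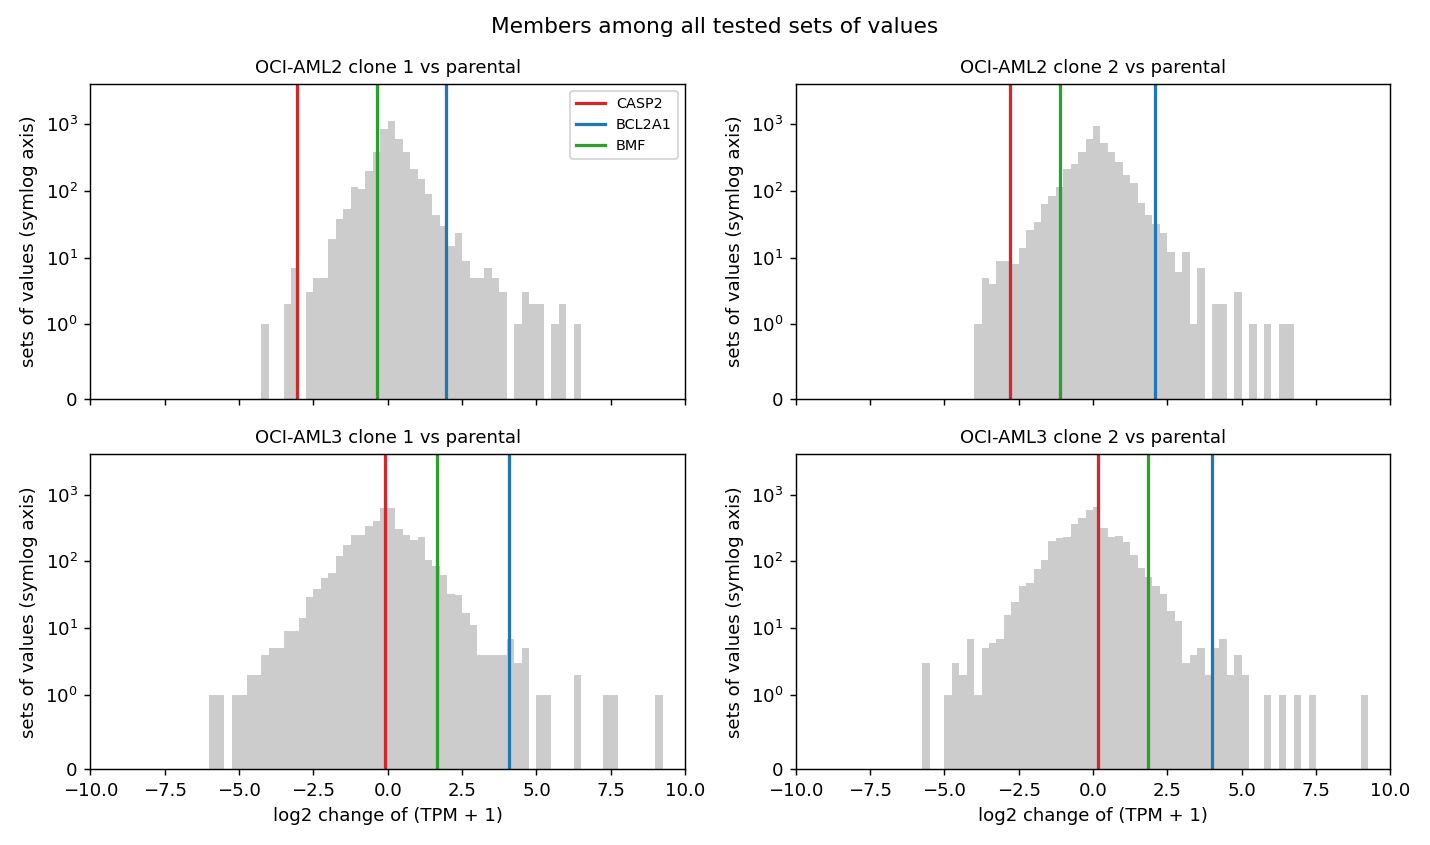
Histograms of the log2 change of TPM + 1 over 4413 tested sets in each clone against parental cells (grey, bins of 0.25 on the log2 scale, counts on a symlog axis), with coloured lines at the 3 members. BCL2A1 lies in the right tail in each panel, and CASP2 lies in the left tail of the OCI-AML2 panels and near 0 in the OCI-AML3 panels.

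Because TPM is scaled to length, the levels of the pro-survival and the BH3-only gene can be set side by side in a library. The ratio of BCL2A1 to BMF TPM averaged 0.754 ± 0.0522 in OCI-AML2 clone 1 and 1.42 ± 0.243 in clone 2, against 0.132 ± 0.0269 in OCI-AML2 parental cells (SD, n = 3 each). It averaged 2.71 ± 0.355 in OCI-AML3 clone 1 and 2.26 ± 0.257 in clone 2, against 0.368 ± 0.102 in OCI-AML3 parental cells (SD, n = 3 each). BMF was thus the more abundant mRNA in the 6 parental libraries and the 3 libraries of OCI-AML2 clone 1, and BCL2A1 in the other 9. The ratio was 5.73 and 10.8 times the parental one in OCI-AML2 clones 1 and 2, and 7.36 and 6.14 times in OCI-AML3 clones 1 and 2. In OCI-AML2 a rise of BCL2A1 and a fall of BMF both went into it, while in OCI-AML3 both genes rose and BCL2A1 rose further. This ratio was chosen after the values were seen and was not tested, and an mRNA ratio does not give the ratio of the proteins.

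**Figure D4:**
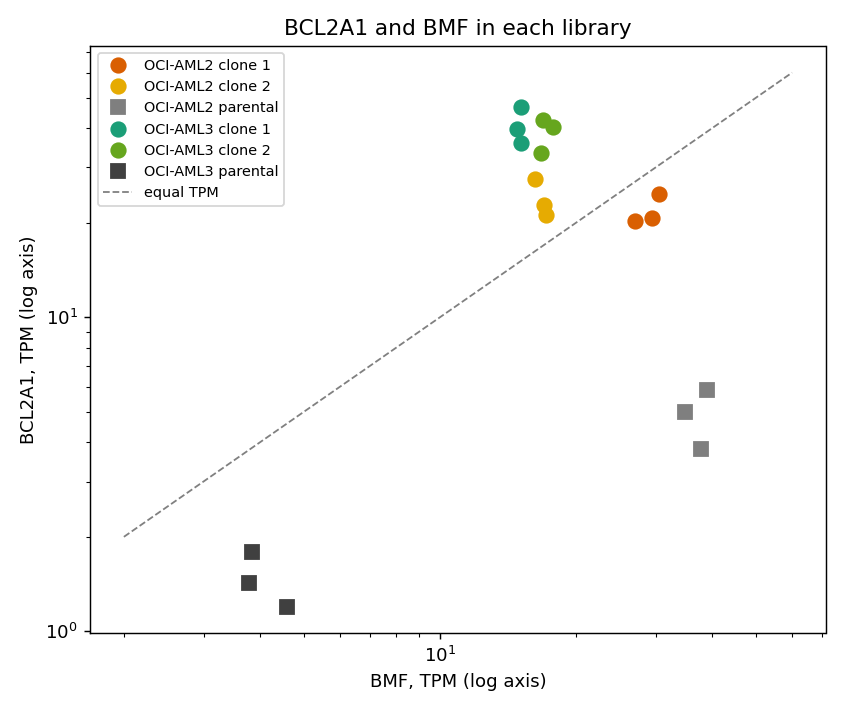
BCL2A1 against BMF, both in TPM on log axes, in each of the 18 libraries (circles: clones, squares: parental cells), with a dashed line at equal TPM. Parental libraries lie low on the BCL2A1 axis and the OCI-AML3 clones and OCI-AML2 clone 2 lie above the line.

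The RefSeq start windows of BCL2A1 and BMF (GRCh38.p14, 250 bases before to 50 after an annotated start) are shown because these genes moved together in OCI-AML3 and apart in OCI-AML2, and that of TNFAIP3 because this feedback inhibitor of NF-kB, like BCL2A1, was higher in all 4 clones. Capitals mark matches on either strand to TATAAA, to the ETS letters GAGGAA, to CACGTG, to the FOXO letters TGTTTAC or to the NF-kB consensus.
BCL2A1, chr15:79971147-79971446, minus strand: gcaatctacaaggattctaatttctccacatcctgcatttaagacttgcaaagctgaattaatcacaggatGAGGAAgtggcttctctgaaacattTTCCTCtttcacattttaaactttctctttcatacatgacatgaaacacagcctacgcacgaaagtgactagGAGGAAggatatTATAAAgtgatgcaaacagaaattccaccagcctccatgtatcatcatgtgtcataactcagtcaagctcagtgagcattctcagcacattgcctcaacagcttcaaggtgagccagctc
BMF, chr15:40108830-40109129, minus strand: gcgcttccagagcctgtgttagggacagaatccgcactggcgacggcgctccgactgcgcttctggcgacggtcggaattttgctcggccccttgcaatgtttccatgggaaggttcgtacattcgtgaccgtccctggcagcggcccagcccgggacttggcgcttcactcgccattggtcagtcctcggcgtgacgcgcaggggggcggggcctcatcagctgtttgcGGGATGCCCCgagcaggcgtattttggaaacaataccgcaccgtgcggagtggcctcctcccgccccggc
TNFAIP3, chr6:137867009-137867308, plus strand: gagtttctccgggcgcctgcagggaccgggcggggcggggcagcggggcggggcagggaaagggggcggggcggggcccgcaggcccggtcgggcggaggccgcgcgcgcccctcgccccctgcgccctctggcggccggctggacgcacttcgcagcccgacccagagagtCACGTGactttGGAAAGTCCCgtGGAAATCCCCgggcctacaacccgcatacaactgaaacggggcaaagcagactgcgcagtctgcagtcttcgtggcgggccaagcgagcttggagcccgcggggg

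The BCL2A1 window held 2 CG dinucleotides, against a median of 14 over 27305 such windows, and 41% G or C. The NF-kB consensus had no match in it. It contained TATAAA at position -70 from the start, letters found in 12% of windows. GAGGAA or its reverse complement stood at -179, -154 and -82, letters found at least once in 27.6% of windows. All such shares count windows with at least 1 match, and the share with repeated matches was not counted. The BMF window held 31 CG dinucleotides and 65% G or C, with no TATAAA. It held 1 match to the NF-kB consensus at -20, which reads as the consensus on both strands and was counted once, and 10.8% of windows had such a match. BMF has another window in the same table, with 1 CG dinucleotide and 1 GAGGAA at -106. The TNFAIP3 window had 2 NF-kB matches, at -67 and -55, and CACGTG at -78, letters found in 7.43% of windows. The window of TNF, another gene that was higher in all 4 clones, had no NF-kB match, and 1 of the 2 windows of CASP2 had one at -111. The FOXO letters were in none of these windows and in 3.41% of all. A match is a description of letters and says nothing of binding, and the TPM table does not tell which start was used.

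Lists of other genes of the pathway were taken from textbook knowledge with earlier results of these data known. Few of these genes stood in the table with a settled symbol. Of 24 BCL2 family genes, 8 symbols were printed in the table and 2 could be tied to values, BCL2A1 and BMF themselves. Of 12 caspase genes CASP2 alone was printed. Of 24 adaptors, activators and inhibitors of caspases 4 were printed and 1 was settled, the inhibitor gene BIRC3, which was at most 0.57 TPM in any library and below the minimum for testing. Of 11 death receptor and ligand genes 6 were printed and 3 settled, and of 13 regulators of transcription and their feedback genes 4 were printed and 2 settled. The other BCL2 family genes, such as those of the BH3-only proteins PUMA and BIM or of MCL1, are therefore not analysed here. That a gene was not printed says nothing of its expression.

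Of the death receptor and ligand genes tested, TNF and TNFRSF10C passed as higher in all 4 clones, 2 of 3 genes beside the 6.44% of all sets that did. TNF, the cytokine that signals through NF-kB and caspase-8, averaged 49.0 ± 3.73 TPM in OCI-AML2 clone 1 and 59.9 ± 3.52 in clone 2, against 32.3 ± 0.155 in OCI-AML2 parental cells (SD, n = 3 each). It averaged 161 ± 5.71 TPM in OCI-AML3 clone 1 and 196 ± 9.52 in clone 2, against 77.5 ± 2.01 in OCI-AML3 parental cells (SD, n = 3 each). The log2 changes of TNF were 0.58 and 0.87 in OCI-AML2 and 1.05 and 1.33 in OCI-AML3, with a highest limma adjusted p of 4.14e-07. TNFRSF10C, a decoy receptor for the ligand TRAIL, stayed at or under 3.27 TPM and changed by 1.06 and 0.54 in OCI-AML2 clones 1 and 2 and by 0.88 and 0.95 in OCI-AML3 clones 1 and 2 (highest limma adjusted p = 0.00137).

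TNFRSF10A, a receptor for TRAIL that carries a death domain, was lower in the OCI-AML3 clones, at 4.73 ± 0.206 and 4.26 ± 0.481 TPM in clones 1 and 2 against 11.3 ± 1.81 in parental cells (SD, n = 3 each). The log2 changes were -1.10 and -1.22 (limma adjusted p = 1.6e-07 and 3.83e-08). In OCI-AML2 it fell by 0.40 in clone 1 (limma adjusted p = 0.00818) and was at -0.13 in clone 2 (limma adjusted p = 0.348). The median log2 change of the 3 genes was 0.58 and 0.54 in the OCI-AML2 clones and 0.88 and 0.95 in the OCI-AML3 clones, against medians over all sets of 0.06 and 0.06, and -0.06 and -0.06.

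TNFAIP3, which encodes the ubiquitin-editing enzyme A20, had log2 changes of 0.56 and 1.01 in OCI-AML2 clones 1 and 2 and of 2.26 in each OCI-AML3 clone (highest limma adjusted p = 1.15e-06). Its means were 20.8 ± 0.414 and 28.8 ± 2.64 TPM in OCI-AML2 clones 1 and 2, against 13.7 ± 0.47 in parental cells, and 16.7 ± 0.217 and 16.7 ± 0.554 TPM in OCI-AML3 clones 1 and 2, against 2.7 ± 0.153 in parental cells (SD, n = 3 each). Like BCL2A1, it was lower in OCI-AML3 parental than in OCI-AML2 parental cells, by 1.99 on the log2 scale (limma adjusted p = 4.02e-15). Of 4413 sets, 1915 passed as lower in that comparison, and 6.44% passed as higher in all 4 clones. MITF, a transcription factor that activates BCL2A1 in melanocytes, rose by 0.27 and 0.35 in OCI-AML2 clones 1 and 2 (limma adjusted p = 0.0288 and 0.00439), and the first of these did not pass after rescaling (0.17, limma adjusted p = 0.111). In OCI-AML3 clones 1 and 2, MITF changed the other way, by -1.04 and -0.94, to at most 0.51 TPM.

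**Figure D5:**
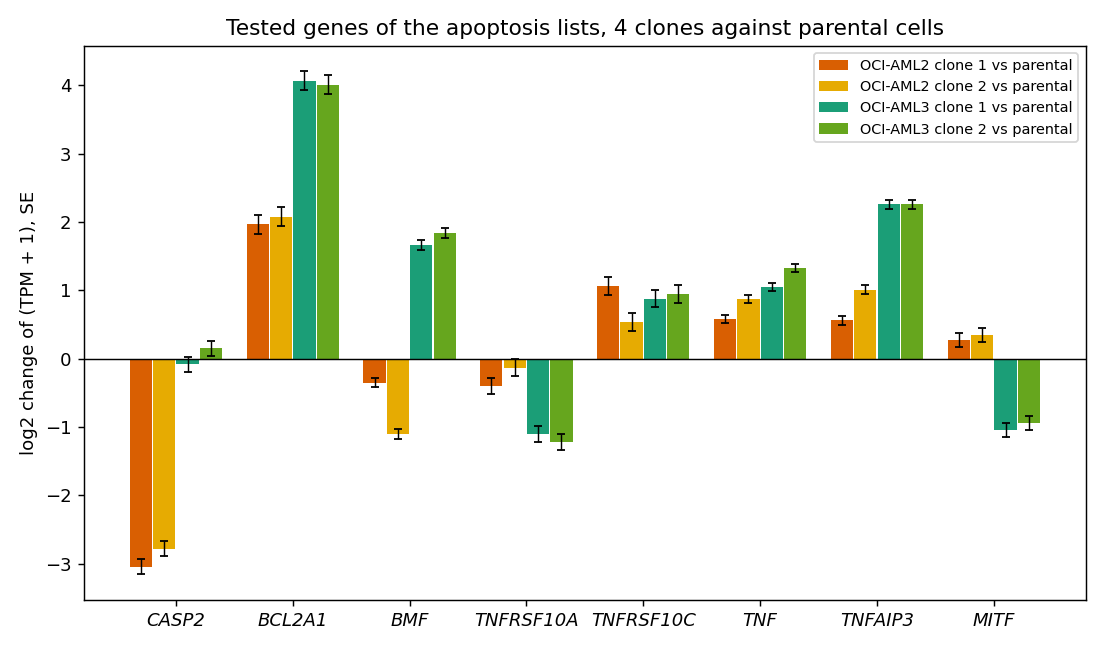
Log2 changes of TPM + 1 with their SE in the 4 clones against the parental cells of the same line, for the 3 members and the 5 other tested genes of the lists. BCL2A1, TNFRSF10C, TNF and TNFAIP3 are above 0 in all 4 clones, and TNFRSF10A is below 0 in all 4. BMF and MITF differ in direction between the lines, and CASP2 is far below 0 only in the OCI-AML2 clones. The change of each gene shown but TNFRSF10C differed between the lines in the direct test (limma adjusted p under 0.05). For CASP2 that test contains the OCI-AML2 clone 1 change through which it may have been listed.

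Each member was compared with the 1996 settled and tested genes whose group means of log2(TPM + 1) spanned at least 1. The most alike patterns were taken by Pearson's r over the 6 group means, as a description of only 6 points that share libraries. For CASP2 these were SLC7A5, an amino acid transporter gene (r = 0.992), C2orf74 (0.987) and the zinc finger gene ZNF516 (0.977). C2orf74 averaged 0.0967 TPM in OCI-AML2 clone 1 and was listed at 0 in clone 2, against 7.86 TPM in OCI-AML2 parental cells. In OCI-AML3 it stayed at 7.77 and 6.36 TPM in clones 1 and 2, against 8.54 TPM in parental cells. For BCL2A1 they were ZNF316 (0.996), NDUFB9, a subunit gene of respiratory complex I (0.991), and MYOF, which encodes the membrane protein myoferlin (0.988). Their steps were smaller, with NDUFB9 at 459 and 503 TPM in OCI-AML2 clones 1 and 2 against 333 in parental cells, and at 576 and 517 TPM in OCI-AML3 clones 1 and 2 against 271 in parental cells. For BMF they were PRAM1, an adaptor gene of myeloid cells (0.994), SMYD3, a methyltransferase gene (0.991), and AGT, the angiotensinogen gene (0.986). PRAM1 averaged 72.1 and 34.3 TPM in OCI-AML2 clones 1 and 2 against 123 in parental cells, and 31.9 and 39.1 TPM in OCI-AML3 clones 1 and 2 against 2.07 in parental cells. AGT followed BMF less closely in OCI-AML2 clone 1, at 213 TPM there and 122 in clone 2 against 203 in OCI-AML2 parental cells, and it had 100 and 99.3 TPM in OCI-AML3 clones 1 and 2 against 26.3 in parental cells. SMYD3 had 157 and 115 TPM in OCI-AML2 clones 1 and 2 against 181 in parental cells, and 117 and 105 TPM in OCI-AML3 clones 1 and 2 against 45.3 in parental cells.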

How the data were processed

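RNA was sequenced in 18 libraries of 6 groups, assigned from their titles. The deposited values are TPM, per the file headers. How reads were aligned and counted, and on which genome build, is not given in the sources used here. Each value column matched a sample. The 6999 lines were reduced to 5069 distinct sets of values. A gene name was taken as settled for 413 sets found repeatedly under 1 symbol, for 1234 through the replicate order of OCI-AML3 clone 1 and for 673 single lines with a parental log2 ratio under 0.6, 2320 sets (45.8%) in all.

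A minimum of 1 TPM in 3 or more libraries left 4413 sets. On log2(TPM + 1) values, limma (version 3.58.1, R 4.3.3) fitted the group means of all 18 libraries together, with an intensity trend. The 6 groups shared the estimate of spread, so the SE, intervals and p-values do not rest on the libraries compared alone. P-values were adjusted by Benjamini-Hochberg over all sets of a comparison, at a threshold of 0.05. In a fit of only the groups compared, limma's adjusted p in OCI-AML2 clone 1 was 2.14e-05 for CASP2 and 0.000397 for BCL2A1. The SE of CASP2 in OCI-AML3 clone 1 was then 0.0438 in place of 0.1123. The script was tested on simulated data. The lowest correlation between replicates of a group was 0.9928, and no libraries were identical. TPM keeps no depth, so no counting interval is given. The members and lists were chosen with earlier results of these data known. Named genes were the members, the settled genes of the lists and, per member, the 3 with the highest correlation among the 1996 compared. Alternatives were another pseudocount, other minimums, rescaling, fewer groups, no trend, a replicate block and leaving out each library.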

Additional observations from a re-analysis of the deposited data

Results flagged for a closer look

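The change of 7 genes differed between the lines in the direct test of the difference (change in OCI-AML3 clones minus change in OCI-AML2 clones, log2 of TPM + 1, limma). It was 2.95 for CASP2 (SE 0.14, adjusted p = 1.49e-12), 2.47 for BMF (SE 0.09, adjusted p = 3.6e-14) and 2.01 for BCL2A1 (SE 0.17, adjusted p = 6.52e-09). Among the genes of the lists it was 1.47 for TNFAIP3 (adjusted p = 2.18e-11), 0.46 for TNF (adjusted p = 3.2e-05), -0.89 for TNFRSF10A (adjusted p = 2.23e-05) and -1.30 for MITF (adjusted p = 1.94e-08). For TNFRSF10C it was 0.11 (adjusted p = 0.532). The CASP2 value contains the OCI-AML2 clone 1 change through which CASP2 may have been listed, so its p-value is no independent support. With 81.7% of all sets passing this test, passing it sets none of these genes apart.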

How the results depend on the processing

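Of 600 values of the members under the alternatives, 592 kept their direction and their side of the threshold. Each value of BCL2A1 and BMF in the 4 clones against parental cells was among them. Other minimums, fewer groups, no trend, the block or leaving out a library of an uninvolved group could not move the estimate between the groups compared. The direction was fixed in advance there, so the count of 592 overstates the stability. With medians of ratios, CASP2 turned to 0.0624 (limma adjusted p = 0.614) in OCI-AML3 clone 1 and passed at 0.32 in OCI-AML3 clone 2. Between the OCI-AML2 clones CASP2 passed at 0.33 with medians of ratios (limma adjusted p = 0.00906) and at 0.26 with a minimum of 5 TPM (limma adjusted p = 0.0489), and ran between 0.18 and 0.43 with 1 library left out. BCL2A1 between the OCI-AML3 clones ran between -0.1515 and 0.0344 with 1 library left out and turned positive without OCI-AML3 clone 1 replicate 1 or clone 2 replicate 2. The sets passing between the OCI-AML3 clones numbered 301, but 409 with medians of ratios (277 higher and 132 lower, against 174 and 127), 166 with a pseudocount of 0.1, 155 with those groups alone and 102 to 369 with 1 library left out, the lowest without clone 2 replicate 2. The cause was not tested. Replicate numbers did not pair the libraries: same-numbered deviations correlated between -0.343 and 0.177, and 10 of 42 matches were best with the own number. With the replicate block, 2445 and 2892 sets passed in OCI-AML2 clones 1 and 2 and 3162 and 3199 in the OCI-AML3 clones, and no call of a member changed. The replicate order of OCI-AML3 clone 1 is not certain in the table. TPM hides the depth that would bound the low values, such as BCL2A1 in OCI-AML3 parental cells.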

Other observations

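The second line printed under BCL2A1 averaged 8.86 ± 0.355 TPM in OCI-AML2 clone 1 and 6.45 ± 0.189 in clone 2, against 7.67 ± 0.448 in OCI-AML2 parental cells (SD, n = 3 each). It averaged 14.5 ± 1.75 TPM in OCI-AML3 clone 1 and 14.5 ± 1.42 in clone 2, against 21.8 ± 0.88 in OCI-AML3 parental cells (SD, n = 3 each). These values were 66.3% of the parental mean in both OCI-AML3 clones, where the accepted BCL2A1 line rose 27.6-fold in clone 1 and 26.3-fold in clone 2. They reached a log2 ratio of 0.95 between the parental lines (1.51, OCI-AML3 over OCI-AML2) and in neither clone selection. Which gene they belong to is not settled by the table.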
